A study of Mus musculus with 3 samples.

Results

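Cells of the large vessels of the lung, marked by von Willebrand factor (Vwf), were taken from single-cell libraries of 3 irradiated mice. A cell was a member if at least 2 of the 5 endothelial genes Pecam1, Cdh5, Cldn5, Egfl7 and Clec14a were above 0, the genes of immune (Ptprc), epithelial (Epcam) and stromal (Col1a1) cells were at 0, and Vwf was above 0. In addition Gpihbp1, the anchor of lipoprotein lipase on capillary cells, and Mmrn1, a gene of lymphatic vessels, had to be at 0, and the aerocyte capillary genes Car4 and Ednrb could not both be above 0. Of 19622 cells in all, 180 were members, with 68 among the 6372 CONV cells, 54 among the 6983 of CONV AsiDNA and 58 among the 6267 of FLASH. They were thus chosen by the measured values of these genes in the same cells, so those genes are no finding here.

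Each library came from 1 female C57BL6/J mouse, labelled WT (wild type), whose thorax had received a nominal 13 Gy, and lungs were collected 5 months later. CONV stands for irradiation at a conventional dose rate, and FLASH for the same nominal dose at an ultra-high dose rate. The delivered thorax doses that the study lists span a different range for each mode. The CONV AsiDNA mouse was irradiated as the CONV mouse and had in addition been injected with AsiDNA, a short DNA duplex joined to cholesterol whose end resembles a DNA break, at 100 mg/kg on 2 consecutive days and at 200 mg/kg on the day of irradiation. All 3 mice were irradiated, and the unirradiated control libraries were not analysed here. Lungs were dissociated with dispase and elastase, no cell type was sorted, and droplet-based 3' libraries were made. As each condition is 1 mouse and 1 library, treatment, animal and library cannot be told apart, no test was possible, and the comparisons describe these 3 libraries.

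Endothelium of arteries and veins differs from that of alveolar capillaries. It makes and stores von Willebrand factor in Weibel-Palade bodies, rod-shaped granules that also hold P-selectin and release both on stimulation, so that platelets and leukocytes can bind the vessel wall. In the mouse lung, Vwf is found in arteries and veins and at a lower level in part of the general capillary cells, whereas the aerocytes that line the gas exchange surface largely lack it. Arterial cells are known for the connexins Gja4 and Gja5 and for elastic matrix, venous cells for Nr2f2, Selp and Vcam1, and the vessels of the bronchi and pleura, which belong to the systemic circulation, for Col15a1, Vwa1, Ackr1 and Meox1.

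The promoters of 3 genes of leukocyte recruitment and of the p53 target Cdkn1a are shown because the results below return to these genes. Il6 and Cxcl10 were listed at 0 in the members of CONV AsiDNA and FLASH but not in those of CONV, the Cxcl1 values of CONV lay in a subset of its members, and Cdkn1a, which encodes the cell cycle inhibitor p21, was at a like level in the 3 libraries. Each line gives the 250 bases before the start site on the gene's own strand, 5' to 3', from RefSeq on GRCm38.p6. Capitals mark matches on either strand to GGGNNTTNCC, a form of the NF-kB site, in the first 3 and to CATGNNNNNNCATG, a form of the p53 site, in the last.
Il6, chr5:30012864-30013113 (+): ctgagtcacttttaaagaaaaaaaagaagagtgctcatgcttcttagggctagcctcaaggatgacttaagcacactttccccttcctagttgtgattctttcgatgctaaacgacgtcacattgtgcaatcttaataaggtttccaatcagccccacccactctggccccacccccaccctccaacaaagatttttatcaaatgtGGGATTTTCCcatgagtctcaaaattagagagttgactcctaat
Cxcl1, chr5:90890995-90891244 (+): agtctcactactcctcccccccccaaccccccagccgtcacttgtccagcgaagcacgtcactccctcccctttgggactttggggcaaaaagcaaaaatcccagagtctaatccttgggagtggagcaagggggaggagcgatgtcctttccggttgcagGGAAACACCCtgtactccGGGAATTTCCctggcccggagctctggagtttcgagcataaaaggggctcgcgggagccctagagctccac
Cxcl10, chr5:92348890-92349139 (-): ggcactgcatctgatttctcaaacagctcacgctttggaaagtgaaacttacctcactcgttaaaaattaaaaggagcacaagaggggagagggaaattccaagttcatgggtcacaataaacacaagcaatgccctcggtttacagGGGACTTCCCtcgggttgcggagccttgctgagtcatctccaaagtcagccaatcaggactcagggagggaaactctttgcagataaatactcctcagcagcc
Cdkn1a, chr17:29090729-29090978 (+): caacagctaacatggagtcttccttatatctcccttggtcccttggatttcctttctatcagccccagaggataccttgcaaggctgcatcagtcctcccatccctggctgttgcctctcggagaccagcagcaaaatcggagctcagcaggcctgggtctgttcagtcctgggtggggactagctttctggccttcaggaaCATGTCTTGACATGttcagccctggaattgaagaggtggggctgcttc

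The match in Il6 began 44 bases before the start site. The matches in Cxcl1 began 89 and 71 bases before it, that in Cxcl10 103 and that in Cdkn1a 48. Of 32851 promoter windows of this length, 1350 (4.11%) held GGGNNTTNCC and 161 (0.490%) held CATGNNNNNNCATG. Among the leukocyte adhesion and chemokine genes, 15 of 22 had a window, and those of Csf1, Cxcl1, Cxcl9, Cxcl10 and Il6 held the first motif. Among the p53 targets 17 of 22 genes had a window, and that of Cdkn1a held the second. These matches describe letters only.

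The deposited values had already been adjusted by the authors and were on a natural log scale, and the whole numbers they convert back to are called adjusted counts here. Members had a median total of 3893.5, 4124 and 3994.5 adjusted counts per cell in CONV, CONV AsiDNA and FLASH, with 1736, 1914 and 1846.5 genes above 0, and whole libraries summed to 23908890, 26417388 and 23383510. The mitochondrial share of the members had a median of 0.128%, 0.160% and 1.22%. Libraries shared 16 cell barcodes between CONV and CONV AsiDNA, 9 between CONV and FLASH and 17 between CONV AsiDNA and FLASH. In the adjusted values some genes were at 0 in whole classes of cells, and the cause was not tested. Gm42418, a transcript that collects ribosomal RNA reads, was above 0 in 93.0%, 93.9% and 5.15% of all cells of the libraries, and the mitochondrial gene mt-Co2 was above 0 in 2347 CONV cells, of which none was in the endothelial gate. A value of 0 is therefore given as listed at 0, not as absence. Levels are given as adjusted CPM, the sum over members scaled so that each library's members total 1e+06, in the order CONV, CONV AsiDNA and FLASH unless stated, and they compare libraries within a gene and not genes with each other. Log2 ratios were taken on adjusted CPM plus 10, and a 2-fold ratio on that scale is called past 2-fold.

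Vwf lies on chr6:125546774-125686679 (+) of GRCm38. Its level chose the members and is given as a description. The median member held 13, 23 and 19 adjusted counts of Vwf, with quartiles of 5, 13 and 10 and 27, 38.75 and 29.75 and a highest value of 77, 77 and 80. CONV held more members near the limit, since Vwf was exactly 1 in 7, 1 and 2 members and at 1 or 2 in 14, 3 and 4. Just outside it, 22, 24 and 15 cells of the 3 libraries met every other criterion but had Vwf at 0. A larger number, 95, 112 and 147, were left out by Gpihbp1 alone, of which 20, 23 and 19 had a single adjusted count of it. Only 1 cell (CONV AsiDNA) was left out by Mmrn1 alone and 1 (CONV) by Car4 and Ednrb. All 5 endothelial genes were above 0 in 38, 37 and 43 members. Among the general capillary cells, Vwf was above 0 in 43.4%, 57.7% and 67.7%, and among aerocytes in 1, 2 and 2 cells.

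Markers that the gate did not use gave the cells an endothelial profile. All 20 endothelial genes outside the gate were analysed in the members, and none differed 2-fold from the general capillary cells in all 3 libraries. Of these genes Ptprb, the phosphatase that acts on Tek, stood at 3892, 4747 and 4557 adjusted CPM, Flt1, the VEGF receptor 1, at 1770.0, 1436 and 1367, and the angiopoietin receptor Tek at 606, 454 and 474. Most markers of other cell types outside the vessels were listed at 0. All 10 mesenchymal and 4 mesothelial markers were listed at 0 in the members of every library. Of 12 immune markers 0, 1 and 1 were above 0, namely S100a8 in 2 CONV AsiDNA cells (727 adjusted CPM) and Cd3e in 1 FLASH cell, and of 9 epithelial markers only Hopx was above 0, in 1 member of each library. The 8 megakaryocyte and platelet genes, which matter because platelets also carry Vwf and Selp, summed to 74.2, 74.9 and 25.6 adjusted CPM with Pf4 listed at 0. The 8 genes of dividing cells summed to 93.8, 35.2 and 137. Of the 7 lymphatic genes, whose sum was 1891, 3619.6 and 4527 adjusted CPM, Lyve1 made up nearly all, and the defining lymphatic factor Prox1 was listed at 0 in the members of all libraries. Capillary genes were not absent. At least 2 of the 10 general capillary genes, which include the widely shared Cd93, Plvap and Tek, were above 0 in 65 of 68, 49 of 54 and 54 of 58 members. The 12 aerocyte genes summed to 2688, 1524 and 935 adjusted CPM, highest in CONV, with at least 2 above 0 in 57 of 68, 36 of 54 and 32 of 58 members. Igfbp7, at 1895, 621 and 107, made up most of that sum in CONV, while the defining aerocyte gene Apln was listed at 0 there. Alternatives below left out members with 2 or more of Aplnr, Kit, Lpl, Sema3c and Btnl9, or with any Car4 or Ednrb. The part of the other capillary and aerocyte genes in the results was not tested.

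Large vessel cells made up a like share of each library and a share of the endothelial cells that was highest in CONV. They were 1.07% of all CONV cells (exact 95% interval 0.830 to 1.35%), 0.773% of CONV AsiDNA cells (0.581 to 1.01%) and 0.925% of FLASH cells (0.703 to 1.19%), and these intervals overlap. Endothelial cells by the same gate numbered 374 of 6372, 454 of 6983 and 484 of 6267, or 5.87%, 6.50% and 7.72%. Of these, members were 18.2% (14.4 to 22.5%) for CONV, 11.9% (9.06 to 15.2%) for CONV AsiDNA and 11.98% (9.23 to 15.2%) for FLASH, with intervals that also overlap. Aerocytes took 14.4%, 35.2% and 34.7% of the endothelial gate, and general capillary cells 58.6%, 42.7% and 44.8%, so the share of each class depends on how many cells of the others were recovered. All intervals reflect only how many cells were sampled, and the variation between mice is not in them. When cells with any Car4 or Ednrb were left out, the CONV share was 14.2%.

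**Figure D1:**
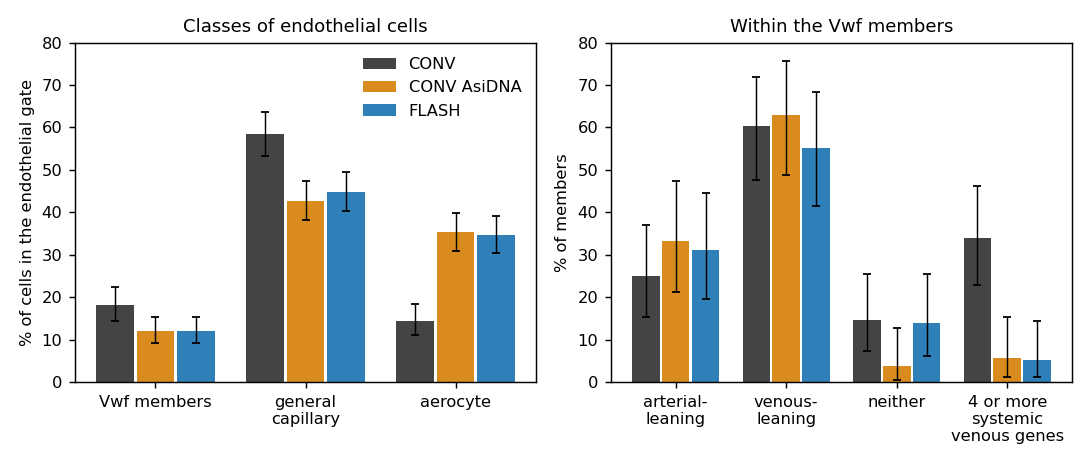
Left, percent of cells of the endothelial gate that were Vwf members, general capillary cells or aerocytes in each library, and right, percent of members that were arterial-leaning, venous-leaning, neither, or held 4 or more systemic venous genes, with exact 95% intervals over cells as error bars. Members were 18.2% of the gate in CONV against 11.9% and 11.98%, aerocytes 14.4% against 35.2% and 34.7%, and members with 4 or more systemic venous genes 33.8% in CONV against 5.56% and 5.17%.

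Set against the general capillary cells of the same library, some arterial and venous genes stood higher in the members. Of 9435 genes compared, 107 (1.13%) were 2-fold or more higher in the members in all 3 libraries and 91 (0.964%) lower. The cells were split by Vwf and Gpihbp1, so this comparison describes classes that the gate itself made. The secreted Wnt regulator Sfrp1 led, at 250.1, 172 and 359 adjusted CPM in members while it was listed at 0 in the general capillary cells. The calcification inhibitor Mgp stood at 4129.9, 3968 and 5078 adjusted CPM in the members and at 624, 265 and 199 in the capillary cells, log2 ratios of 2.71, 3.86 and 4.61. Cytl1, a small secreted protein, followed with log2 ratios of 5.26, 3.22 and 3.93, and carboxypeptidase E (Cpe), a venous gene, with 3.65, 3.24 and 2.75. Igfbp5, an insulin-like growth factor binding protein, had ratios of 3.23, 2.55 and 2.17. Others among the 15 farthest genes were the matrix proteins Bgn, Ccdc80 and Fbln5, the sulfatase Sulf1, the ephrin Efna5, Pgm5, Enpp6, the chaperone Hspa1a and Selp. Scn7a, Glp1r, Kit, Adgrl3 and Hopx were farthest below, with Scn7a at 27.4, 57.2 and 47.0 adjusted CPM against 508, 611 and 562 in capillary cells.

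Both arterial and venous genes lay above the capillary level. Of 20 arterial genes, 8 were past 2-fold higher in all 3 libraries and 1, the transcription factor Sox17, lower, with medians of 0.62, 0.76 and 1.00 on the log2 scale. Gja5, the connexin of arterial gap junctions, stood at 238, 211 and 342 adjusted CPM against 41.4, 69.3 and 40.5, the kinase Bmx at 339.9, 343 and 397 against 67.7, 79.0 and 53.1, and the elastic fibre proteins Fbln5, Fbln2 and Ltbp4 showed the same order. Hey1, a Notch target, did not share this order, at 50.8, 48.4 and 21.4 against 85.2, 157 and 125. Of 16 venous genes 4 were past 2-fold higher in all 3 libraries and none lower, with medians of 1.10, 1.50 and 0.92. These were Selp, Vcam1, Car8 and Cpe, though the smallest of the ratios of Selp fell from 2.23 to 0.89 when members that held 4 or more of the systemic venous genes were left out. The 9 systemic venous genes did not set the members apart, with 1 higher and 1 lower in all 3 libraries and medians of -0.13, -0.19 and 0. The 10 general capillary genes had medians of -1.19, -1.30 and -1.71 and the 12 aerocyte genes of -1.57, -1.02 and -1.57. Against aerocytes the members stood farther apart, with 598 of 8412 genes (7.11%) past 2-fold higher and 463 (5.5%) lower in all 3 libraries, 15 of 16 venous and 12 of 20 arterial genes among the higher, and 11 of 12 aerocyte genes among the lower.

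**Figure D2:**
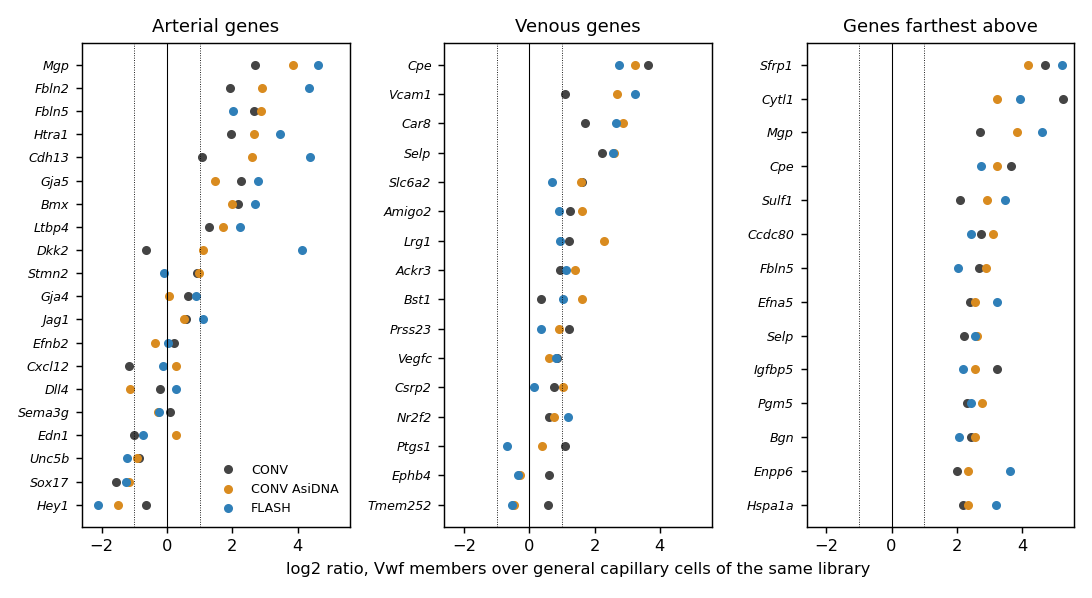
Log2 ratio of adjusted CPM plus 10 in Vwf members over general capillary cells of the same library (x axis) for the arterial list, the venous list and 14 of the 15 genes farthest above (rows), with 1 point per library and dotted lines at 2-fold. Gja5, Bmx, Htra1, Mgp, Fbln2, Fbln5, Ltbp4 and Cdh13 lie past 2-fold to the right in all 3 libraries, and so do Vcam1, Car8, Selp and Cpe, while Sox17 lies past it to the left.

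Some members leaned to arterial genes and others to venous genes. A member was called arterial-leaning with 2 or more of Gja5, Gja4, Bmx, Htra1, Dkk2 and Hey1 above 0 and more of these than of the venous genes Slc6a2, Nr2f2, Vcam1, Prss23, Bst1, Car8 and Selp, and venous-leaning in the reverse case. This cuts a range and does not define cell types, since 5, 2 and 7 members had equal numbers of both and 12, 14 and 17 differed by 1 gene. Venous-leaning members were 41 of 68, 34 of 54 and 32 of 58, or 60.3% (47.7 to 72.0%), 63.0% (48.7 to 75.7%) and 55.2% (41.5 to 68.3%). Arterial-leaning members were 17 of 68, 18 of 54 and 18 of 58, or 25.0%, 33.3% and 31.0%, and the rest met neither rule. The intervals of the 3 libraries overlap for both shares, but Vcam1, Bst1 and Selp differed 2-fold or more between libraries, so the cut does not fall on the same cells in each.

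More genes differed between CONV and either other library than between CONV AsiDNA and FLASH. Of 5370 genes that summed to 20 adjusted counts or more over the members, 836 (15.6%) were past 2-fold between CONV and CONV AsiDNA and 906 (16.9%) between CONV and FLASH, against 471 (8.77%) between CONV AsiDNA and FLASH, of which 228 (4.25%) were higher and 243 (4.53%) lower in CONV AsiDNA. By direction, 403 (7.5%) were higher and 433 (8.06%) lower in CONV than in CONV AsiDNA, and 436 (8.12%) higher and 470 (8.75%) lower than in FLASH. In CONV 185 genes were past 2-fold above both other libraries and 252 below both. Both comparisons use the same CONV cells, so a value particular to the CONV mouse enters both. Genes listed at 0 in either library compared account for 41 of the 836 and 46 of the 906. The median over all genes was -0.03, -0.03 and -0.01 on the log2 scale for CONV over CONV AsiDNA, CONV over FLASH and CONV AsiDNA over FLASH. These shares of all genes stand as the background for the gene lists that follow, and with 54 to 68 cells per library a 2-fold ratio of a low gene rests on few cells.

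Among lists with 5 or more analysed genes, the one with the largest share past 2-fold higher in CONV held genes of systemic venous endothelium. All 9 genes were analysed, and 6 were past 2-fold higher in CONV than in CONV AsiDNA and 7 than in FLASH with none lower, against 7.5% and 8.12% of all genes. The list's medians were 1.24 and 2.12, and without Spry1 and Ebf3, which were listed at 0 in the other libraries, they were 1.08 and 1.83 over 7 genes. When members that held 2 or more of the capillary genes Aplnr, Kit, Lpl, Sema3c and Btnl9 were left out, the median over CONV AsiDNA fell within 2-fold, to 0.77. The transcription factor Ebf1 was above 0 in 28 of 68, 4 of 54 and 6 of 58 members, at 266, 35.2 and 51.3 adjusted CPM (log2 ratios of CONV 2.61 and 2.17). Its relative Ebf3 was above 0 in 14 of 68, 0 of 54 and 0 of 58 members and the receptor tyrosine kinase inhibitor Spry1 in 16 of 68, 0 of 54 and 0 of 58. Ackr1, the chemokine-binding receptor of venules, stood at 188, 83.7 and 17.1 adjusted CPM in 11 of 68, 3 of 54 and 2 of 58 members, with ratios of 1.08 and 2.87. Its ratio against CONV AsiDNA fell within 2-fold in 4 of 12 alternatives, to as low as 0.56. The homeobox gene Meox1 was at 70.3, 17.6 and 8.54 and the basement membrane gene Vwa1 at 102, 48.4 and 21.4. Col15a1, a collagen of the vessel basement membrane, was at 129, 92.5 and 42.7, past 2-fold only against FLASH. Plvap, the diaphragm protein of fenestrae and caveolae, went the other way within 2-fold, at 965, 1211 and 1247. Between CONV AsiDNA and FLASH 1 of the 9 genes was past 2-fold.

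In CONV these genes sat together in part of the members. Members with 4 or more of the 9 genes above 0, a number set after the values were seen, numbered 23 of 68 (33.8%, 22.8 to 46.3%) among CONV members, 3 of 54 (5.56%, 1.16 to 15.4%) with AsiDNA and 3 of 58 (5.17%, 1.08 to 14.4%) after FLASH. Of the 23 CONV cells 21 were venous-leaning and 1 arterial-leaning, an overlap that is partly built in as Selp belongs to both sets of genes. The same held for capillary cells, in which 4 or more of the genes were above 0 in 66 of 219 (30.1%), 13 of 194 (6.70%) and 3 of 217 (1.38%), while aerocytes had 0, 2 and 0 such cells. The list's medians in the general capillary cells were 1.62 and 1.63. The 23 CONV members with 4 or more of the genes had a median total of 3900 adjusted counts, close to the 3863 of the other CONV members.

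**Figure D3:**
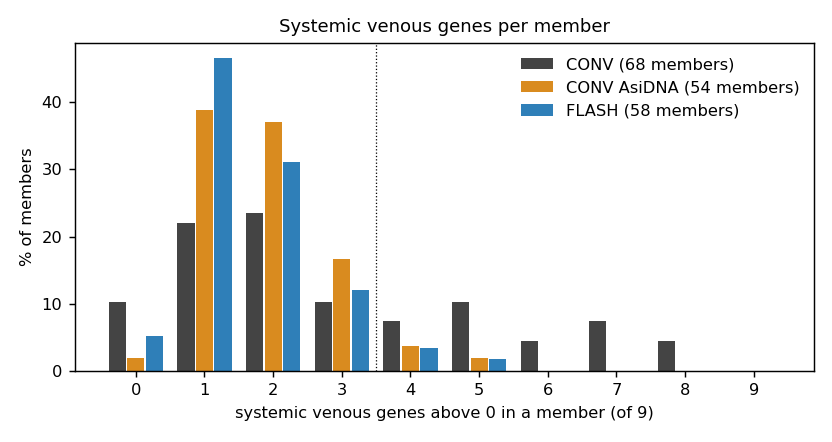
Percent of the Vwf members of each library (y axis) by how many of the 9 systemic venous genes were above 0 in the cell (x axis), with bars for CONV (68 members), CONV AsiDNA (54) and FLASH (58) and a dotted line below 4 genes. The CONV bars reach farther right, with 33.8% of members at 4 or more genes against 5.56% and 5.17%.

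The 23 CONV cells with 4 or more systemic venous genes were also set beside the 45 other CONV members for genes that did not choose them. All come from the same mouse and the cut was set after the values were seen, so the values describe this split only. Of 2305 genes compared, each above 0 in at least 25% of either set, 215 were past 2-fold higher and 378 lower. A gene could enter through a single set, as Sele, Il6, Cxcl1, Il1r1, Enpp2, Bmp2 and Irx3 did through the 23 cells. E-selectin (Sele), the adhesion molecule of activated endothelium, was above 0 in 18 of 23 and 3 of 45 cells (1466 adjusted CPM against 47.6), Il6 in 10 of 23 and 4 of 45, the neutrophil chemokine Cxcl1 in 7 of 23 and 0 of 45 and the interleukin-1 receptor Il1r1 in 18 of 23 and 9 of 45. Igfbp7, an insulin-like growth factor binding protein found in Weibel-Palade bodies, stood at 4511 adjusted CPM against 524. Enpp2, which makes lysophosphatidic acid, was above 0 in 7 of 23 and 1 of 45 cells, Bmp2 in 6 of 23 and 3 of 45 and the transcription factor Irx3 in 7 of 23 and 1 of 45. Csf2rb2, Zfp46, Myo10, Gda, Pde8a, Net1 and Grrp1 completed the 15 farthest above. Genes farthest below included Cytl1 and Cpe, which had marked members apart from capillary cells, the arterial genes Gja5 and Htra1, the phosphodiesterase Pde3a and Lyve1, which was above 0 in 2 of 23 and 32 of 45 cells. Vwf itself was lower there, at 2363 adjusted CPM against 6306. With such cells left out of all 3 libraries, several differences described below fell within 2-fold. Against CONV AsiDNA these included Entpd1 (0.68), Lrg1 (0.73), Ackr3 (-0.59), Tgfb1 (-0.43), Anxa2 (-0.94), Phlda3 (-0.80), Ptgis (-0.82) and B2m (-0.91). Igfbp7 (0.08) and Selp (0.003) did so too. Against FLASH they included Entpd1 (0.93), Bmp4 (-0.98), Bmp6 (-0.65), Cav1 (-0.83), Dll1 (-0.98), Lyve1 (-0.79) and Rps27l (-0.61). Fabp4 (0.28), Cp (0.60), Dll4 (-0.76) and Dkk2 also fell within 2-fold against FLASH. Sele turned to -2.02 against CONV AsiDNA and to -2.23 against FLASH.

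Genes of leukocyte adhesion and chemokines differed in both directions. Of 22 such genes 19 were analysed, of which 5 were past 2-fold higher and 4 lower in CONV than in CONV AsiDNA, and 4 higher and 4 lower than in FLASH, with medians of -0.07 and 0.11. The list's counts exceed the background shares in both directions. In the general capillary cells 7 were higher and 1 lower, then 4 and 2, with medians of 0.55 and 0.51. Of all 8902 genes analysed in those cells, 388 were higher and 371 lower, then 482 and 391.

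Vcam1, the integrin ligand that holds lymphocytes and monocytes to the vessel wall (chr3:116109949-116129688, minus strand), was lowest in CONV. It was above 0 in 31 of 68 CONV members, 45.6% (33.5 to 58.1), in 45 of 54 CONV AsiDNA members, 83.3% (70.7 to 92.1), and in 49 of 58 FLASH members, 84.5% (72.6 to 92.7). These intervals cover the sampling of cells only and not the variation between mice. Its level was 679.9, 1528 and 2934 adjusted CPM, with log2 ratios of CONV of -1.16 and -2.09 and of -0.94 between CONV AsiDNA and FLASH. The highest cell held 26, 35 and 93 adjusted counts. In the general capillary cells Vcam1 stood at 311, 230.1 and 305 adjusted CPM, within 2-fold of each other. After each cell was thinned to 1000 adjusted counts, the expected shares of members above 0 were 27.6%, 57.0% and 67.5%. In the arterial-leaning members Vcam1 was above 0 in 6 of 17, 16 of 18 and 16 of 18 cells, at 244, 2589 and 4156 adjusted CPM, and in the venous-leaning members the levels were 929, 925 and 2582. Vcam1 is 1 of the venous genes that sort members into both sets, so these values are a description only.

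P-selectin and E-selectin, which let leukocytes roll along the wall, were highest in CONV. Selp stood at 1274, 533 and 829 adjusted CPM in 40 of 68, 28 of 54 and 35 of 58 members, with log2 ratios of 1.24 and 0.61. Among members with fewer than 4 systemic venous genes, a count that includes Selp itself, it was at 500.2, 499 and 761. Sele stood at 535, 220.2 and 248 in 21 of 68, 13 of 54 and 15 of 58 members, ratios of 1.24 and 1.08. Its place differed between libraries, since CONV had it in 18 of 23 members with 4 or more systemic venous genes but in 3 of 45 others and in 1 of 17 arterial-leaning members, whereas 7 of 18 arterial-leaning members of CONV AsiDNA and 8 of 18 of FLASH were above 0. Without the cells of 4 or more systemic venous genes the order turned, with log2 ratios of CONV for Sele of -2.02 and -2.23. Icam1, the ligand of leukocyte beta-2 integrins, was within 2-fold, at 598, 515 and 812, and the junctional Icam2 at 778, 1251 and 1004.

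Among the cytokines, Il6 was above 0 in 14 of 68 CONV members, 20.6% (11.7 to 32.1), at 301 adjusted CPM and up to 18 adjusted counts in 1 cell, and was listed at 0 in the members of both other libraries. It was not at 0 in those libraries as a whole, where 84 CONV AsiDNA and 48 FLASH cells were above 0 against 97 in CONV, but of these 1, 1 and 40 lay in the endothelial gate. Cxcl1 stood at 89.9, 8.81 and 72.6 adjusted CPM in 7 of 68, 1 of 54 and 7 of 58 members. Cxcl10 was above 0 in 3 of 68 CONV members and listed at 0 in the others, and Ccl2 was listed at 0 in the members of all 3 libraries. Lower in CONV were Cxcl16, a membrane-bound chemokine, at 15.6, 66.1 and 137, and Cx3cl1 at 58.6, 88.1 and 162, the latter past 2-fold only against FLASH. Cxcl12, the chemokine of arterial endothelium, was lowest in FLASH, at 1293, 1977 and 649, a log2 ratio of 1.59 between CONV AsiDNA and FLASH. The scavenging receptor Ackr3 stood at 500.1, 1092 and 982. Bst1, a venous ectoenzyme that makes cyclic ADP-ribose, was above 0 in 15 of 68, 32 of 54 and 28 of 58 members at 97.7, 427 and 439.9 adjusted CPM, log2 ratios of -2.02 and -2.06.

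**Figure D4:**
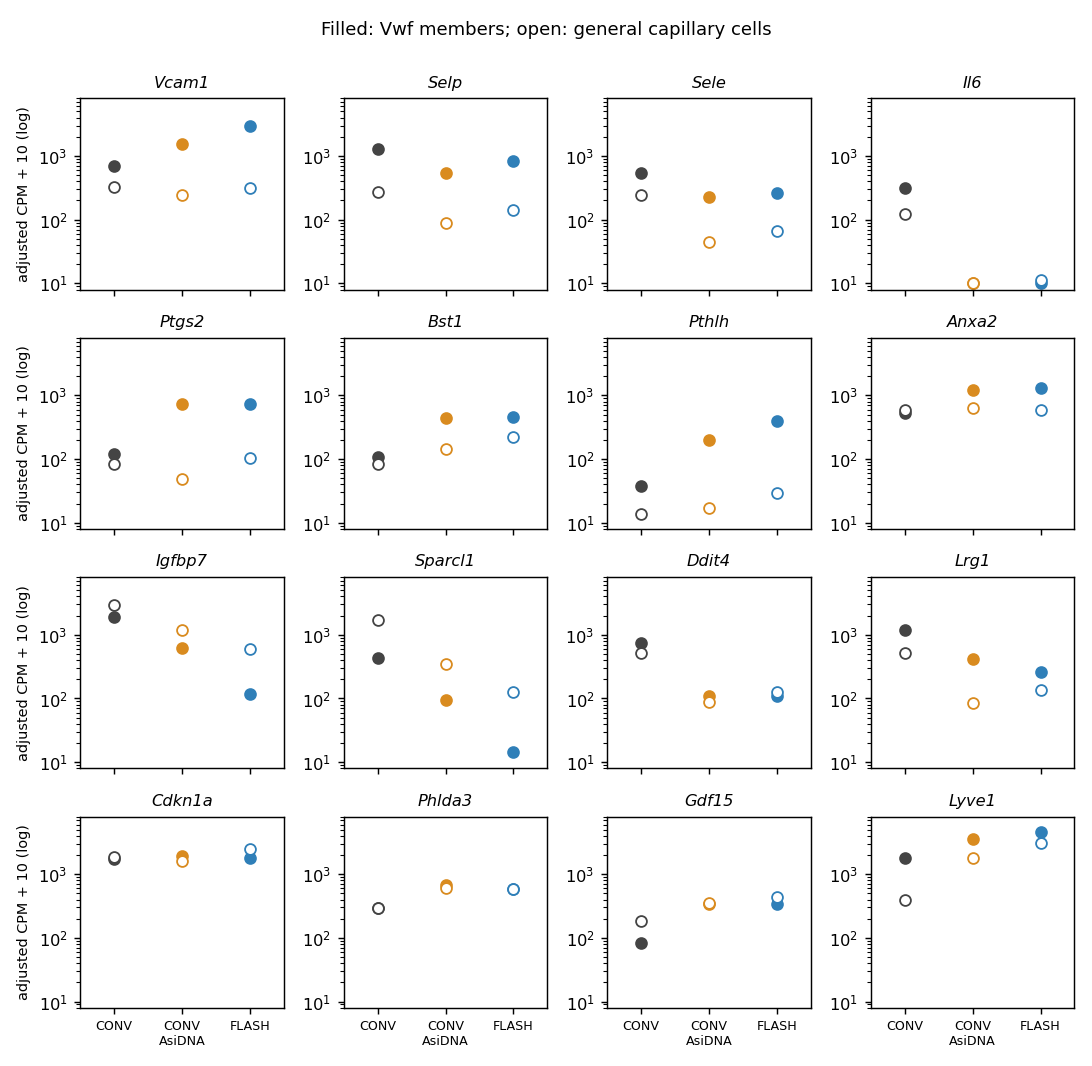
Level of 16 genes in the 3 libraries (x axis) as adjusted CPM plus 10 on a log axis, with filled points for Vwf members and open points for general capillary cells, and no error bars as each point is 1 mouse. Vcam1 is at 679.9 adjusted CPM in CONV members and 2934 in FLASH members but between 230.1 and 311 in capillary cells, whereas Igfbp7 and Sparcl1 are highest in CONV in both.

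In the balance of clotting and fibrinolysis, several genes were lower in CONV. Of 20 genes 13 were analysed, with 2 higher and 5 lower than in CONV AsiDNA (median -0.33) and 3 higher and 4 lower than in FLASH (median -0.43). The plasminogen receptor complex of Anxa2 and S100a10 was lower in CONV than in both, Anxa2 at 512, 1198 and 1286 (ratios -1.21 and -1.31) and S100a10 at 367, 806 and 1055 (-1.11 and -1.50), while in capillary cells Anxa2 was at 569, 619.7 and 572. Against CONV AsiDNA the ratio of Anxa2 fell within 2-fold in 1 of 13 alternatives and that of S100a10 in 2, to -0.94 and as low as -0.76 in size. The urokinase receptor Plaur stood at 43.0, 172 and 171. Thrombomodulin (Thbd), which turns thrombin into an anticoagulant, was within 2-fold at 1344, 2061 and 1811, as were its partner Procr at 152, 194 and 222 and tissue plasminogen activator (Plat) at 989, 1154 and 1021. Entpd1, the ectonucleotidase that removes ATP and ADP, was higher in CONV, at 609.5, 269 and 214, and the protease inhibitor Serpine2 was lowest in FLASH, at 97.7, 88.1 and 8.54. F3, the tissue factor that starts clotting, was listed at 0 in all members. Of the Weibel-Palade body genes other than Vwf, 10 of 14 were analysed, with 2 higher and 1 lower than in CONV AsiDNA and 1 each than in FLASH. Igfbp7 was the farthest of these, at 1895, 621 and 107 adjusted CPM in 46 of 68, 20 of 54 and 13 of 58 members, and it was at 2976, 1163 and 586 in capillary cells. Without the cells of 4 or more systemic venous genes it stood at 524, 494 and 104, so that the ratio against CONV AsiDNA fell to 0.08 while that against FLASH was 2.23.

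No gene of vascular tone was past 2-fold higher in CONV. Of 18 analysed genes of 20, 4 were past 2-fold lower than in CONV AsiDNA and 5 than in FLASH, with medians of -0.44 and -0.44. Ptgs2, the inducible cyclooxygenase (chr1:150100031-150108227, plus strand), was above 0 in 4 of 68 CONV members, 5.88% (1.63 to 14.4), in 24 of 54 of CONV AsiDNA, 44.4% (30.9 to 58.6), and in 23 of 58 of FLASH, 39.7% (27.0 to 53.4). Its level was 109, 735 and 718 adjusted CPM, log2 ratios of -2.64 and -2.61, and it was at 72.7, 38.8 and 94.9 in capillary cells. Thinned to 1000 adjusted counts, the shares were 4.53%, 24.8% and 25.4%. The difference was present in arterial-leaning (1 of 17, 9 of 18 and 8 of 18 above 0) and venous-leaning members (3 of 41, 13 of 34 and 14 of 32). Prostacyclin synthase (Ptgis), which makes a vasodilator from the product of cyclooxygenase, stood at 133, 308 and 457, and the natriuretic peptide clearance receptor Npr3 at 50.8, 167 and 184. Apelin (Apln) was listed at 0 in CONV members and at 61.6 and 68.3 in the others. Endothelial nitric oxide synthase (Nos3) was within 2-fold at 254, 357 and 419. Caveolin 1 (Cav1) was at 1250.3, 2202 and 2691, past 2-fold only against FLASH, and within 2-fold were also endothelin 1 (Edn1) at 969, 1898 and 1098 and the angiotensin-converting enzyme (Ace) at 805, 1449 and 1448, and the shear-responsive factors Klf2 and Klf4 had ratios between 0.15 and 0.49. The constitutive cyclooxygenase Ptgs1 leaned the other way within 2-fold, at 246, 172 and 145.

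Several ligands of the TGF-beta and BMP families were lower in CONV. Of 16 analysed genes of 20, none was past 2-fold higher and 5 were lower than in CONV AsiDNA, median -0.73, and 1 higher and 4 lower than in FLASH, median -0.62. Tgfb2 was above 0 in 13 of 68, 25 of 54 and 19 of 58 members at 74.2, 273 and 252 adjusted CPM, and Tgfb1 stood at 74.2, 159 and 145. The ratio of Tgfb1, past 2-fold only against CONV AsiDNA, fell within 2-fold in 4 of 13 alternatives. Bmp4 was at 117, 220.2 and 320.3 and Bmp6 at 102, 194 and 231, both past 2-fold only against FLASH. Those ratios fell within 2-fold in 1 and 4 of 13 alternatives. Ltbp1, counted as lower than in CONV AsiDNA, turned to 0.20 without the 6% of cells of highest total. Among the receptors, the BMP9 receptor Acvrl1 was at 563, 1048 and 905, Bmpr2 at 910.4, 1004 and 1123 and endoglin (Eng) at 1129, 1449 and 1213, all within 2-fold, and Tgfbr2 was lowest in FLASH at 176, 119 and 42.7. The BMP target Id1 stood at 1109.7, 1669 and 1644, Id3 at 953, 1030.4 and 965 and the inhibitory Smad6 at 406, 621 and 735, within 2-fold as well. Id2 was past 2-fold lower in CONV than in CONV AsiDNA, with a log2 ratio of -1.48, at 15.6, 61.6 and 12.8 in 3 of 68, 6 of 54 and 1 of 58 members. The same list in capillary cells had medians of -0.15 and -0.05. Of the Notch genes 12 of 14 were analysed, with 1 higher and 1 lower than in CONV AsiDNA and 1 higher and 3 lower than in FLASH. The ligand Dll1 stood at 117, 229 and 320.3 and the feedback inhibitor Nrarp at 78.1, 282 and 282, in 17 of 68, 38 of 54 and 35 of 58 members, whereas Jag2 was higher in CONV at 160.2, 66.1 and 64.1. Hey1 and Hes1, both Notch targets, were within 2-fold between libraries, at 50.8, 48.4 and 21.4 and 269.6, 339 and 231.

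The p53 targets did not move as a block. Of 22 genes 17 were analysed, with none higher and 4 lower in CONV than in CONV AsiDNA (median -0.63) and 1 higher and 3 lower than in FLASH (median -0.34). Cdkn1a, whose promoter is shown above, was above 0 in 60 of 68, 49 of 54 and 55 of 58 members, at 1739, 1951 and 1785 adjusted CPM, ratios of -0.17 and -0.04. Without replicate mice no interval can be put on that ratio. Past 2-fold lower in CONV than in both were Gdf15, a stress cytokine, at 74.2, 326 and 329 in 6 of 68, 18 of 54 and 17 of 58 members, and the cyclin Ccng1 at 7.81, 30.8 and 55.5. Phlda3, an inhibitor of Akt, at 281, 661 and 572, and the nuclease Aen, at 23.4, 96.9 and 42.7, were so only against CONV AsiDNA, and Rps27l, at 242, 471 and 513, only against FLASH. Mdm2, which marks p53 for degradation, was within 2-fold at 39.1, 66.1 and 59.8, as were the death receptor Fas at 258, 242 and 273 and Bax at 207, 286 and 265. Btg2, also an early response gene, was higher in CONV than in FLASH, at 754, 546 and 342. In the capillary cells Gdf15 stood at 174, 338 and 434 and Phlda3 at 284, 593 and 582, the same order as in the members.

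Most matrix genes were within 2-fold between libraries. Of 24 analysed of 28, 4 were higher and 1 lower in CONV than in CONV AsiDNA and 6 higher and none lower than in FLASH, with medians of 0.03 and 0.14. Elastin (Eln) stood at 1262, 1880.3 and 1435 adjusted CPM, Fbln5 at 1109.7, 1189 and 713, Mgp at 4129.9, 3968 and 5078, Bgn at 692, 1052 and 1183 and Timp3 at 2942, 4209.7 and 4886, all within 2-fold. Outside the list, Ccdc80 and Sulf1, which were among the genes farthest above capillary cells, were past 2-fold lower in CONV than in FLASH, Ccdc80 at 82.1, 137 and 278 and Sulf1 at 215, 436 and 581. Sparcl1, an anti-adhesive glycoprotein, was above 0 in 27 of 68, 9 of 54 and 1 of 58 members at 429.8, 83.7 and 4.27, and at 1698, 333 and 116 in capillary cells. The collagen cross-linking enzyme Lox was at 102, 26.4 and 29.9 and the microfibril protein Mfap5 at 66.4, 8.81 and 12.8, both higher in CONV in 10 of 68, 6 of 54 and 4 of 58 and 7 of 68, 1 of 54 and 2 of 58 members. Perlecan (Hspg2) was past 2-fold only against CONV AsiDNA, at 395, 189 and 303, and that ratio fell within 2-fold in 4 of 13 alternatives. Of the 14 mesenchymal transition genes 6 were analysed. Vim stood at 2211, 2048 and 3592, whereas the contractile genes Acta2 and Tagln were above 0 in few cells, 0 of 68, 2 of 54 and 2 of 58 and 1 of 68, 2 of 54 and 11 of 58.

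Interferon and antigen presentation genes lay near the background. Of 18 analysed of 22, 1 was higher and 2 lower in CONV than in CONV AsiDNA, and 1 higher and 3 lower than in FLASH. Beta-2 microglobulin (B2m), the light chain of MHC class I, stood at 824, 1761 and 1837 adjusted CPM, with ratios of -1.09 and -1.15, and the antiviral tether Bst2 at 188, 524 and 679, with ratios of -1.43 and -1.80. The heavy chains H2-K1 and H2-D1 were within 2-fold, at 1313, 1695 and 1768 and 1625, 2048 and 1982. Cd74, the MHC class II chaperone, was above 0 in 4 of 68 CONV members and listed at 0 in the members of the others, where also no cell of the endothelial gate was above 0, and H2-Aa, H2-Ab1 and H2-Eb1 were listed at 0 in the members of all 3 libraries. Isg15 was past 2-fold lower in CONV than in FLASH at 86.0, 128 and 252, a difference that rested on members with Vwf at 1 or 2, since the log2 ratio was 0.20 without them.

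Genes that respond to tissue dissociation were mostly within 2-fold between the libraries in the members. Of 20 genes 1 was past 2-fold higher in CONV than in CONV AsiDNA and 2 higher and 1 lower than in FLASH, with medians of 0.43 and 0.31. In the general capillary cells 12 and 11 of the genes were past 2-fold higher in CONV, with medians of 1.74 and 1.08. Of all 8902 genes analysed in those cells, 388 and 482 were past 2-fold higher in CONV. Fos stood at 3583, 2206 and 2481 adjusted CPM in members and at 2848, 445 and 662 in capillary cells, Egr1 at 1817, 1418 and 1307 and 1053, 182 and 278, and Atf3 at 977, 581 and 1166 and 504, 83.2 and 189. Nr4a1 stood at 274 in CONV members and 48.4 in those with AsiDNA. In FLASH members it was listed at 0, although 29.0% of all FLASH cells were above 0. The part of dissociation in the other results was not tested.

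**Figure D5:**
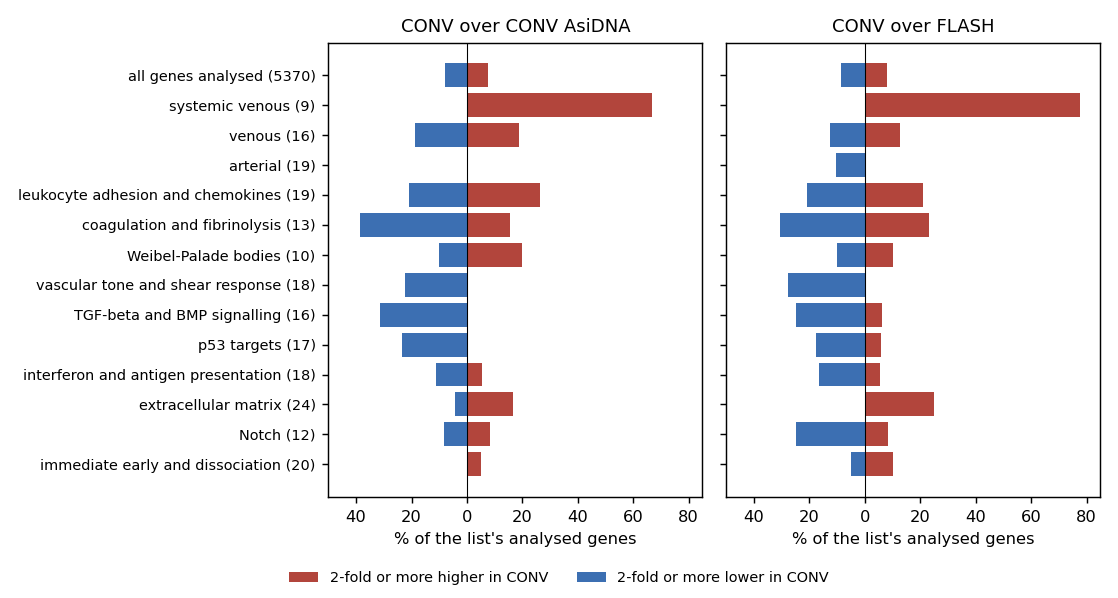
Percent of the analysed genes of each list (number in brackets) that were 2-fold or more higher (to the right) or lower (to the left) in CONV members than in CONV AsiDNA or FLASH members, with all genes analysed at the top as background. Systemic venous genes have 6 and 7 of 9 genes higher and none lower, while TGF-beta and BMP signalling, vascular tone and p53 targets have more genes lower than higher.

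Ranked over all genes above 0 in the members of every library, the 10 genes farthest above both others in CONV were Ddit4, Tbc1d8, Glul, Olfml2a, Btg1, Cirbp, Abca1, Sparcl1, Ralgds and Enpp2. Ddit4, an inhibitor of mTORC1 that glucocorticoids and hypoxia induce, was above 0 in 53 of 68, 13 of 54 and 19 of 58 members at 746, 101 and 98.2 adjusted CPM, log2 ratios of 2.76 and 2.80. It was as high in members with 4 or more systemic venous genes (682) as in the other CONV members (780.1), and it was also highest in CONV among capillary cells, at 499, 77.6 and 116. Glutamine synthetase (Glul) stood at 250.1, 35.2 and 29.9, the anti-proliferative Btg1 at 578, 96.9 and 76.9, the cholesterol exporter Abca1 at 203, 35.2 and 17.1 and the cold-inducible Cirbp at 125, 4.40 and 17.1. Of the venous list, Tmem252 stood at 2020.0, 502 and 495 and Lrg1, a modulator of TGF-beta signalling, at 1192, 405 and 252, log2 ratios of 1.53 and 2.20. Lrg1 was above 0 in 42 of 68, 15 of 54 and 6 of 58 members, and at 503, 74.9 and 127 adjusted CPM in capillary cells.

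The 10 genes farthest below both others in CONV included mt-Co1, Tagln, Sgms2, mt-Nd3, mt-Atp6, Selenoi, Ptgs2, Pthlh and mt-Nd4. Tagln, which rests on 1 of 68, 2 of 54 and 11 of 58 members with up to 29 adjusted counts in 1 CONV AsiDNA cell, had a ratio of CONV over CONV AsiDNA of -3.44 that turned to 0.48 without the 6% of cells of highest total. The 4 mitochondrial genes were low in the capillary cells of CONV too, as with mt-Atp6 at 305, 2074 and 3852 in members and 2.51, 1122 and 3336 in capillary cells. The median mitochondrial share of capillary cells was 0.104%, 0.722% and 0.974%, beside the 0.128%, 0.160% and 1.22% of the members. Sgms2, a sphingomyelin synthase, was above 0 in 1 of 68, 13 of 54 and 17 of 58 members at 3.91, 106 and 171 adjusted CPM, while capillary cells had 3.76, 12.5 and 11.4. Parathyroid hormone-like hormone (Pthlh), a peptide that relaxes vessels, was above 0 in 7 of 68, 18 of 54 and 28 of 58 members at 27.4, 189 and 389, with ratios of -2.42 and -3.42, and at 3.76, 6.93 and 19.0 in capillary cells. The order of Pthlh was thus the same in capillary cells, at lower levels. Lyve1, a hyaluronan receptor, was also lower in CONV members, above 0 in 50.0%, 96.3% and 87.9% at 1789.5, 3532 and 4506 adjusted CPM, and in capillary cells at 383, 1758 and 3107.

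In CONV AsiDNA, Gm26917, Cd24a, Piezo2, Cpeb2 and Gm30382 were farthest above both others and Fau, mt-Nd2, H2afz, Gkn3 and Hmgb2 farthest below. Gm26917 stood at 78.1, 1008 and 34.2 adjusted CPM, and a single CONV AsiDNA cell held 206 adjusted counts of it. The mechanosensitive channel Piezo2 stood at 39.1, 149.7 and 38.4, and without the 6% of cells of highest total its log2 ratios fell within 2-fold, at -0.64 (CONV over CONV AsiDNA) and 0.54 (CONV AsiDNA over FLASH). The ribosomal gene Fau was above 0 in 47 of 68, 5 of 54 and 30 of 58 members, and Gkn3, a gene of arterial cells, in 7 of 68, 2 of 54 and 6 of 58. In FLASH, Tagln, Kcnn4, Olfm2, Col5a1 and Fkbp2 were farthest above and Sparcl1, Slc6a6, Igfbp7, Serpine2 and Spaca6 farthest below. The potassium channel Kcnn4 of endothelial hyperpolarisation was above 0 in 2 of 68, 2 of 54 and 11 of 58 members, and the taurine transporter Slc6a6 in 42 of 68, 14 of 54 and 6 of 58, at 1758, 471 and 68.3 adjusted CPM. The order of Slc6a6 was the same in capillary cells, at 1869.8, 398 and 197.

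Of the genes analysed, 20 were listed at 0 in the CONV members, 24 in those of CONV AsiDNA and 38 in those of FLASH, and a gene at 0 in both of a pair of libraries, such as Spry1 or mt-Co3, counts for each. The most widespread elsewhere were mt-Co2, Ctsh, Hsph1, Mfge8 and Sulf2 for CONV, Rasd1, mt-Co3, Cst3, Epn1 and Spry1 for CONV AsiDNA, and Gm42418, AY036118, Nr4a1, Sec61a1 and Scd2 for FLASH. Of the genes named, mt-Co2, Ctsh and Mfge8 were also listed at 0 in the CONV general capillary cells, mt-Co3 and Cst3 in those of CONV AsiDNA, and Gm42418, AY036118 and Sec61a1 in those of FLASH.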

How the data were processed

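Single-cell 3' libraries of the lungs of 3 mice, 1 per condition, were analysed. Per the submitters' processing notes, Cell Ranger 6.0.0 and mm10 were used, and the study names R and Seurat. For each library the authors deposited natural log values of 22954 genes per cell, which convert back (exponential minus 1) to whole numbers within 1e-06 and are depth-adjusted. No source used here describes that adjustment. A design for raw counts had been planned, and as the values were adjusted no count model was used. The other 4 tables were not used. They hold other features, with 12 per-sample columns, and 3 of them give the authors' own comparisons.

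Members, lists and the comparisons were chosen with earlier results of these data known. Member values were summed per library and scaled to adjusted CPM, genes with a sum of at least 20 outside the 13 gate genes were analysed, and log2 ratios were taken on adjusted CPM plus 10, which understates low genes and gives no bound for a gene at 0. Shares carry exact Clopper-Pearson 95% intervals. Genes named were the members of the lists, the 10 farthest above and below both other libraries in CONV and 5 each in the others (above 0 in 10% or more of the members of a library), the 15 farthest above capillary cells, and the 5 most widespread of those listed at 0. Il6 and Cxcl1 in the CONV subset, Lyve1, Scn7a, Glp1r, Kit, Adgrl3 and the genes of the subset of 23 cells were chosen after their values were seen. Some genes that these rules name are not reported here. No doublet caller was run, and an alternative left out the 6% of cells with the highest totals. The log2 ratios, but not the ranking, were checked on simulated counts with known changes planted in genes of high sums. Simulated cells of a library shared the same profile, so variation between cells and low genes were not covered. Promoter windows came from RefSeq and gene positions from GENCODE on GRCm38. Python 3.11.15, numpy 2.4.6, scipy 1.17.1, pandas 2.3.3 and matplotlib 3.10.9 were used.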

Additional observations from a re-analysis of the deposited data

Results flagged for a closer look

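A few ratios between libraries pointed past 2-fold one way in the large vessel members and past 2-fold the other way in the general capillary cells of the same libraries. The difference between both cell classes was not tested. For the actin-binding Tagln, CONV over CONV AsiDNA was -3.44 in members and 2.13 in capillary cells, and the member value rests on 1 of 68, 2 of 54 and 11 of 58 cells above 0 and turned to 0.48 without the 6% of cells of highest total. For the Wnt antagonist Dkk2, an arterial gene, CONV over FLASH was -1.07 in members and 3.72 in capillary cells, and CONV AsiDNA over FLASH was -1.13 and 1.92, with Dkk2 listed at 0 in FLASH capillary cells. Without the 6% of cells of highest total the member ratios of Dkk2 were -0.31 and -0.17, within 2-fold. For fibronectin (Fn1), CONV over FLASH was 2.51 and -1.40, with 1 CONV member above 0 and Fn1 listed at 0 in FLASH members. For smooth muscle actin (Acta2), CONV over CONV AsiDNA was -3.96 and 2.07, and CONV over FLASH -3.65 and 1.58, with Acta2 listed at 0 in CONV members and above 0 in 2 members of each other library, so these fitted ratios are set by the prior and are no bound. Over genes past 2-fold in members that were also analysed in capillary cells, 4 of 815 (CONV over CONV AsiDNA), 11 of 886 (CONV over FLASH) and 7 of 454 (CONV AsiDNA over FLASH) were opposite in capillary cells, and 221, 225 and 42 were past 2-fold the same way.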

How the results depend on the processing

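Of 244 ratios past 2-fold among named genes and list medians, 183 did not fall within 2-fold in their own direction under any alternative run. Reversals were counted apart, so the 183 include Isg15 and the systemic venous median, both against FLASH, which turned sign in an alternative. Reversals were few. With the cells of 4 or more systemic venous genes left out, an alternative added after the data were seen, Sele turned to -2.02 (CONV over CONV AsiDNA) and -2.23 (CONV over FLASH), Col15a1 to -0.30 against FLASH, and the median of the systemic venous list to -0.26 and -0.41, which for the list's own genes follows from how the cells were removed. With Vwf at 3 or more, Isg15 turned to 0.20 against FLASH. With the 6% of cells of highest total left out, Ltbp1 and Tagln turned to 0.20 and 0.48 (CONV over CONV AsiDNA). With members that held 2 or more of Aplnr, Kit, Lpl, Sema3c and Btnl9 left out, the systemic venous median against CONV AsiDNA was 0.77. With Car4 and Ednrb each at 0, members were 14.2% of the CONV endothelial gate.

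Counts of genes past 2-fold followed the filter and the prior, as these change which low genes enter. With a minimum sum of 50 CONV over CONV AsiDNA gave 147 higher and 203 lower, CONV over FLASH gave 145 and 245, and CONV AsiDNA over FLASH gave 59 and 74. With a minimum of 1 they were 1078 and 879, 1217 and 873, and 668 and 626. With a prior of 1, CONV AsiDNA over FLASH had 399 and 366, and 232 genes were lower than in capillary cells in all 3 libraries. Scaling by the median gene ratio shifted ratios by about 0.10, 0.14 and 0.04. Of 63 list medians 8 near 0, none above 0.11 in size on either scale, changed sign, among them those of leukocyte adhesion and of venous genes for CONV over CONV AsiDNA, and 0 changed their side of 2-fold. No paired analysis was possible because each group holds 1 mouse. Between 54 and 68 cells per library limit all values, and low genes most.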

Other observations

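Of the VEGF, angiopoietin and apelin genes 12 of 15 were analysed in members, 1 higher and 1 lower for CONV over CONV AsiDNA and 2 higher and 1 lower for CONV over FLASH. The apelin receptor Aplnr, a general capillary gene, stood at 113, 35.2 and 4.27 adjusted CPM in 12 of 68, 5 of 54 and 1 of 58 members, the lymphatic and venous receptor Flt4 at 89.9, 88.1 and 21.4 and Kdr, the main VEGF receptor, at 371, 330.3 and 222. Of the senescence genes 9 of 14 were analysed, 4 higher and 2 lower and 3 higher and 2 lower. These include Il6, Gdf15 and Igfbp7 of the lists above, Cdkn2a was above 0 in 1 CONV member and in none of the others, and Igfbp3 was above 0 in 8 of 68, 4 of 54 and 0 of 58 members.

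Of the clock genes 5 of 14 were analysed, 2 higher and 0 lower and 1 higher and 1 lower. Per1 stood at 102, 26.4 and 29.9 adjusted CPM and Nr1d1 at 15.6, 26.4 and 64.1, and no source used here gives the hour at which lungs were taken. Of the fatty acid handling genes 5 of 10 were analysed, 0 higher and 0 lower and 2 higher and 0 lower, with the fatty acid chaperone Fabp4 at 203, 264 and 68.3 (log2 ratio of CONV over FLASH 1.44, and 0.28 without the members of 4 or more systemic venous genes) and the transporter Cd36 at 348, 599 and 547. Of the acute phase genes 3 of 9 were analysed, 1 higher and 2 lower and 2 higher and 0 lower. The copper carrier ceruloplasmin (Cp) stood at 31.3, 207 and 4.27 in 3 of 68, 2 of 54 and 1 of 58 members, with a ratio of CONV over FLASH of 1.53 that was 0.60 without the members of 4 or more systemic venous genes, and haptoglobin (Hp) was listed at 0 in all members. The arterial list had 0 higher and 0 lower and 0 higher and 2 lower, and the venous list 3 higher and 3 lower and 2 higher and 2 lower. The 2 arterial genes lower in CONV than in FLASH were Dkk2 at 74.2, 70.5 and 167 and the Notch ligand Dll4 at 78.1, 74.9 and 179, and without the members of 4 or more systemic venous genes their ratios were within 2-fold, at -0.90 and -0.76. Of the 6 analysed mesenchymal transition genes, 1 higher and 2 lower and 1 higher and 2 lower, among them S100a6 at 465, 211 and 790.1, whose ratio of CONV over CONV AsiDNA was 0.78 without the 6% of cells of highest total. Of the 20 endothelial genes outside the gate, 1 was past 2-fold lower in each comparison, Sox18 against CONV AsiDNA and Cav1 against FLASH.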
